A study of Mus musculus with 44 samples.

Results

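The aminoacyl-tRNA synthetase genes were followed in ribosome-bound RNA from the mouse hippocampus after early-life exercise (ELE). Gene symbols were searched for an amino acid letter or "Ep", then "ars" or "rs" and an optional ending of 1, 2, a or b, without Lars2, and 43 of the 21899 protein-coding genes listed had such a symbol. Of these, 36 encode synthetases or synthetase subunits: 18 are cytosolic, 16 are mitochondrial, and Gars and Kars make both forms from 1 gene. The other 7 matching symbols (Arsa, Arsb, Frs2, Irs1, Irs2, Mrs2 and Rrs1) name unrelated proteins and were left out. Genes entered by symbol and not by measured value, while this group of genes was chosen with earlier results of these data known.

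Aminoacyl-tRNA synthetases join each amino acid to its tRNA, the step on which the accuracy of translation rests. The cytosol and the mitochondrion each have a set, and all of these genes lie in the nucleus, so the mitochondrial enzymes are made on cytosolic ribosomes and imported. Several cytosolic enzymes sit together in the multi-synthetase complex, and many cytosolic synthetase genes are known targets of ATF4, the transcription factor of the amino acid and unfolded protein responses.

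All mice carried Emx1-IRES-Cre and the NuTRAP reporter (Emx1-NuTRAP), which places a tagged ribosomal protein in cells of the Emx1 lineage, mainly excitatory neurons, so the RNA recovered (TRAP-seq) is that bound to the tagged ribosomes. The mice were male and housed in pairs, and were killed on the day after the running period. ELE mice had a wheel from postnatal day 21 to 41, and sedentary mice had a standard cage. In the simultaneous isolation (SIT), RNA and nuclei came from the combined hippocampi of a mouse, with 4 ELE and 4 sedentary libraries. In the separate isolation, RNA came from 1 hippocampus of each of 12 other mice, with 3 ELE and 3 sedentary libraries from the left and as many from the right. The questions were how cytosolic and mitochondrial enzymes compare in level, and whether ELE changed either set in each isolation.

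The 20 libraries held between 45895097 and 65767802 counts, of which the 36 genes took between 0.116% and 0.182%. The lowest count of any of the 36 genes in any library was 161 and the highest was 9865, so all 36 passed the filter on low counts in each comparison. The study left out 3 SIT libraries as outliers. They were the ELE library NT6.304 and the sedentary libraries NT7.2.3 and NT7.2.4, named here by mouse number, and the 17 other libraries are called kept. In NT7.2.3 and NT7.2.4, 8.64% and 9.64% of counts came from the mitochondrial genome, against 0.0704% to 0.523% in the kept libraries, and the 4 microglia markers summed to 139 to 146 CPM (counts scaled to the library's total with TMM) against 1.35 to 5.94. The 4 excitatory neuron markers, among them Slc17a7 and Camk2a, summed to between 10476 and 13282 CPM in the kept libraries and the 5 interneuron markers to between 40.3 and 75.3 CPM. Tissue RNA of this kind cannot tell fewer cells of a type from less RNA per cell.

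Cytosolic synthetase transcripts were more abundant than mitochondrial ones in every kept library. Levels were compared between genes as CPM per kilobase of exon, with exon length taken as the union of all annotated exons. The median cytosolic gene stood at 7.74 CPM per kb and the median mitochondrial gene at 2.87, while the median of all genes tested was 2.04. Library by library, the ratio of the class medians ranged from 2.31 to 3.03 over the 17 kept libraries. It was 3.66 in NT6.304, 3.88 in NT7.2.3 and 3.68 in NT7.2.4.

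Hars, the histidine enzyme, had the highest level of all at 41.5 CPM per kb ± 3.49 (SD, n = 17), and its lowest library lay above the highest of the next gene. Nars followed at 31.9 ± 2.24, Gars at 30.0 ± 4.34 and Wars at 25.2 ± 2.68 (SD, n = 17), and the ranges of neighbouring genes overlapped. Farsb and Sars came next at 19.7 and 18.9 CPM per kb, and Kars at 18.02, which closed the upper group: its lowest library was above every library of Yars. Yars, Aars and Rars stood at 13.3, 11.6 and 11.4 CPM per kb. Dars and Iars stood at 8.78 and 6.70, and Mars, Farsa and Lars at 5.53, 5.31 and 4.74.

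The classes met in the middle of the order, where no neighbouring pair was separated. Aars2, the alanine enzyme of mitochondria, had the highest mitochondrial level at 4.68 CPM per kb, beside the cytosolic Qars at 4.59. Iars2, Yars2 and Rars2 stood at 4.41, 4.36 and 4.22, level with the cytosolic Tars at 4.30 and Vars at 4.30. Among those below them were Tars2 at 3.37, Pars2 at 3.29, Fars2 at 3.11, Sars2 at 2.88, Vars2 at 2.87 and Hars2 at 2.42. Only 2 cytosolic genes lay in that stretch, Cars at 3.07 and Eprs at 2.58. Eprs, which encodes the joint glutamate and proline enzyme, has 18102 bases of annotated exon, the most of the 36 genes, and stood at 46.7 CPM before division by length.

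The lowest levels were all mitochondrial. Ears2 and Mars2 stood at 1.35 and 1.33 CPM per kb, and every library of Hars2 was above every library of Ears2. The lowest were Nars2 at 1.13 ± 0.134, Cars2 at 1.01 ± 0.160 and Wars2, the mitochondrial tryptophan enzyme, at 0.910 ± 0.211 (SD, n = 17). In all, 6 mitochondrial genes lay below the lowest cytosolic mean, and 13 of 18 cytosolic genes lay above the highest mitochondrial mean.

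**Figure D1:**
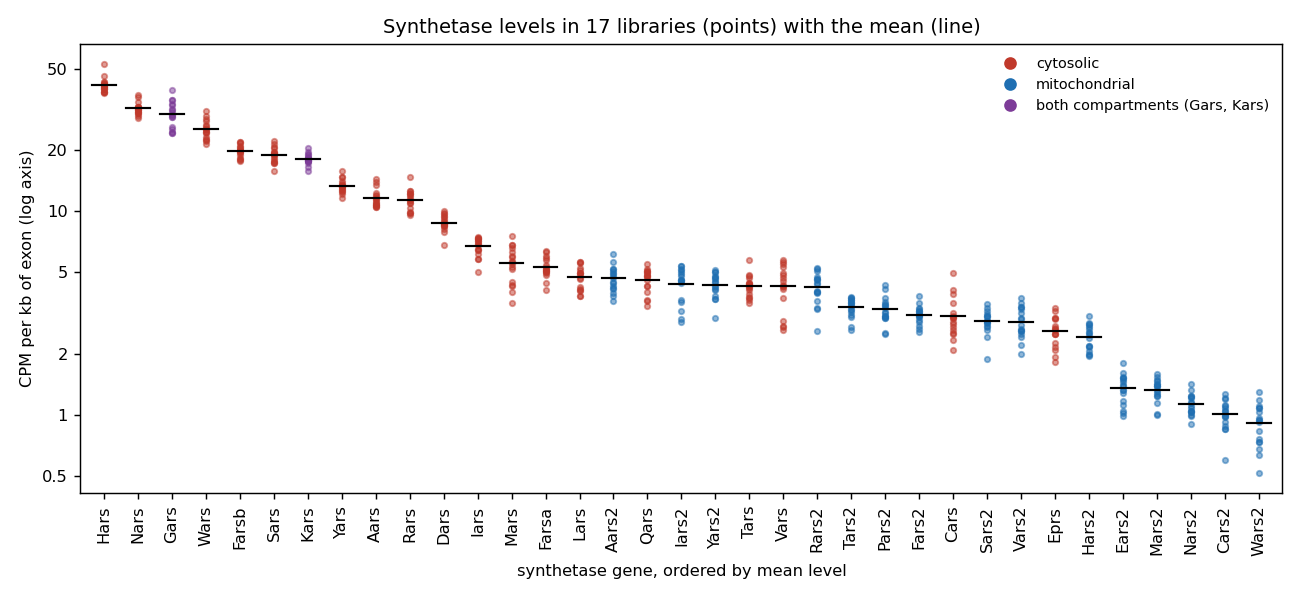
Level of each synthetase gene reported here in CPM per kilobase of exon on a log axis, with the 17 kept libraries as points and their mean as a line. Hars was highest at 41.5 and Wars2 lowest at 0.910, and the classes overlapped between 4.68 and 2.58.

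Enzymes for the same amino acid differed widely between compartments. Of 15 mitochondrial genes set beside the cytosolic gene for the same amino acid, 14 had the lower mean. The gap was 28.3-fold for asparagine (Nars over Nars2, between 23.8 and 33.2 in single libraries), 27.7-fold for tryptophan and 17.2-fold for histidine. It was 1.28-fold for threonine, where Tars was above Tars2 in 16 of 17 libraries, and 1.5-fold for valine, where Vars was above Vars2 in 15 of 17. Pars2, which serves proline in mitochondria, was above Eprs in 14 libraries, with the ratio of Eprs to Pars2 at 0.783.

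Exercise effects were tested with edgeR's quasi-likelihood test over all genes. The study's limits were used for a call, which needed both an unadjusted p below 0.05 and a log2 fold change beyond 0.3875 in either direction. After adjustment over all genes by the Benjamini-Hochberg method, the lowest adjusted p among the 36 genes was 0.905 in SIT, 0.960 on the left, 1 on the right and 0.924 over the separate libraries, so no exercise effect below passed that correction. In the SIT libraries kept (3 ELE and 2 sedentary), 1 of the 36 genes was called, where 3.65% of the 18238 genes tested were called. That gene was Vars2, the valine enzyme of mitochondria. It stood at 14.3, 12.1 and 10.8 CPM in the ELE libraries and at 18.5 and 17.3 CPM in the sedentary ones. The groups did not overlap, and every ELE library was lower. The log2 fold change was -0.53 (SE 0.18, adjusted p = 0.905 by edgeR's quasi-likelihood test).

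The Vars2 call was not made in every fit. It remained at -0.61 with all 8 SIT libraries (adjusted p = 0.460 by edgeR), where NT6.304 read 7.50 CPM and NT7.2.3 and NT7.2.4 read 15.5 and 17.5. Without NT6.306 it was -0.47 and with a block for the mouse number's prefix it was -0.33, and in neither fit was the gene called. The fit without NT6.306 had 1 sedentary library, assumed to vary like the ELE ones. The block left the 1 ELE and 2 sedentary mice of prefix NT6 to set the difference, since both mice of the other prefix were ELE. In the left hippocampus Vars2 stood at 15.8 CPM ± 2.44 in ELE and 17.2 ± 2.90 in sedentary mice, and in the right at 15.8 ± 3.05 and 15.5 ± 2.60 (SD, n = 3 each), with log2 fold changes of -0.12 and 0.03 that did not pass (edgeR adjusted p = 0.966 and 1). The difference between the SIT and separate effects was -0.48 (SE 0.23, edgeR adjusted p = 0.982).

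No other synthetase was called in the SIT comparison. The median log2 fold change of the 36 genes was -0.03, against 0.00 over all genes tested, and 23 of 36 were lower in ELE. Sars2, the serine enzyme of mitochondria, read 8.91, 10.8 and 11.03 CPM in ELE and 6.20 and 8.69 in sedentary libraries. All ELE values were above the sedentary ones, with a log2 fold change of 0.46 (SE 0.22, edgeR adjusted p = 0.915). It was called without NT6.303, at 0.55, and without NT6.305, at 0.72, when 1 sedentary library was left and was assumed to vary like the ELE ones. Qars, the glutamine enzyme of the multi-synthetase complex, read 23.8, 24.0 and 22.6 CPM in ELE and 28.2 and 26.3 in sedentary libraries (log2 fold change -0.22, SE 0.13, edgeR adjusted p = 0.957). In all, 7 of 36 genes had groups that did not overlap, where 22.1% of all genes tested did so with 3 libraries against 2.

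With all 8 SIT libraries the same count stood at 1 of 36, where 7.7% of genes were called, and the median of the 36 genes was 0.08 instead of -0.03. Among cytosolic genes, 13 of 18 were then higher in ELE, against 3 of 18 in the kept libraries. With 8 libraries the microglia, endothelial and interneuron markers were all called lower in ELE (4 of 4, 3 of 3 and 5 of 5), and their part in these values was not tested.

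In the left hippocampus (3 ELE and 3 sedentary mice) none of the 36 genes was called by edgeR, where 2.07% of 17750 genes were called, 1 had an unadjusted p below 0.05 (3.94% of all genes did), and DESeq2 called 1. Of the cytosolic genes, 16 of 18 had a positive log2 fold change, as did 9 of 16 mitochondrial genes and 50.9% of all genes tested. The cytosolic count rested on TG9.1.4, an ELE library: without it 9 of 18 cytosolic and 10 of 16 mitochondrial genes were positive, and the cytosolic median was 0.00 instead of 0.09. The mitochondrial count rested on TG7.3.4, a sedentary library: without it 15 of 16 mitochondrial and 15 of 18 cytosolic genes were positive, with medians of 0.10 and 0.08. The gene at p under 0.05 was Mars, the methionine enzyme. It read 25.9, 23.2 and 20.3 CPM in ELE and 18.2, 19.2 and 19.5 in sedentary mice. The groups did not overlap, and the log2 fold change was 0.28 (SE 0.12, edgeR adjusted p = 0.960). It missed an unadjusted p of 0.05 when any of 5 of the 6 libraries was left out, and its value was 0.19 without TG9.1.4.

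Cars, the cysteine enzyme, had the largest left difference of the 36 genes and was the gene called by DESeq2. It read 32.6, 20.004 and 20.9 CPM in ELE and 17.8, 19.8 and 17.1 in sedentary mice, so a single library, TG9.1.4, stood far above the others. The log2 fold change was 0.42 (SE 0.19, edgeR adjusted p = 0.960), and it was 0.16 without TG9.1.4. It was called by edgeR without TG7.3.2, at 0.54, and without TG9.2.2, at 0.53. Rars, the arginine enzyme, read 47.6, 37.3 and 39.0 CPM in ELE and 36.6, 35.4 and 33.4 in sedentary mice, with a log2 fold change of 0.23 (edgeR adjusted p = 0.960), or 0.11 without TG9.1.4. In all, 6 of 36 genes, all cytosolic and higher in ELE, had groups that did not overlap. Of all genes 10.8% did in either direction and 5.38% with ELE higher.

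In the right hippocampus none of the 36 genes was called by edgeR or by DESeq2, where 1.97% of 17570 genes were called by edgeR, and 1 had an unadjusted p below 0.05 (2.78% of all genes did). That was Hars2, the histidine enzyme of mitochondria. It read 11.9, 10.2 and 10.6 CPM in ELE and 9.28, 8.30 and 8.40 in sedentary mice. The groups did not overlap (log2 fold change 0.33, SE 0.15, edgeR adjusted p = 1). It missed an unadjusted p of 0.05 without any of TG9.2.1, TG9.2.3, TG7.3.1 and TG7.3.3, with values of 0.26 to 0.36. In the left hippocampus the log2 fold change of Hars2 was 0.03 (edgeR adjusted p = 0.992), and the difference between the hemispheres did not pass (edgeR adjusted p = 1).

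The next genes on the right were Ears2 and Tars. Ears2, the glutamate enzyme of mitochondria, read 7.46, 6.00 and 5.79 CPM in ELE and 7.81, 7.67 and 7.88 in sedentary mice, lower in each ELE library (log2 fold change -0.28, edgeR adjusted p = 1). Without TG9.2.1 it was -0.41 and was called. Tars, the threonine enzyme, read 27.6, 26.1 and 26.2 CPM in ELE and 24.9, 21.5 and 24.1 in sedentary mice (log2 fold change 0.18, edgeR adjusted p = 1). The median over the 36 genes was 0.01, with 18 higher and 18 lower, and 4 of 36 had groups that did not overlap, where 7.69% of genes did. Among markers, 1 of 3 endothelial and 1 of 4 microglia genes were called lower in ELE. Of 5 interneuron markers 1 was called higher, where 1.97% of all genes were called. Endothelial markers summed to 20.6 CPM in TG7.3.3, a sedentary library, and to at most 2.66 CPM in right ELE mice. The part of these markers in the right values was not tested.

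Over the 12 separately isolated libraries, with hemisphere in the model, none of the 36 genes was called by edgeR or DESeq2 and none had an unadjusted p below 0.05, where 2.01% of 18810 genes were called and 5.31% had such a p. The smallest p-values belonged to Nars, Mars and Hars. Nars, the asparagine enzyme, read 139, 141 and 157 CPM in left ELE mice and 127, 132 and 133 in left sedentary mice. On the right it read 133, 138 and 162 CPM in ELE mice and 131, 136 and 141 in sedentary mice. ELE was higher on average in both hemispheres, and the groups overlapped only on the right (log2 fold change 0.12, SE 0.06, edgeR adjusted p = 0.924).

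Hars and Mars were ordered alike in the same model. Hars read 99.3, 103 and 128 CPM in left ELE and 93.6, 94.2 and 96.9 in left sedentary mice, then 103, 105 and 106 in right ELE and 94.4, 101 and 112 in right sedentary mice. Its log2 fold change was 0.12 (SE 0.07, edgeR adjusted p = 0.924). Mars on the right read 17.8, 22.5 and 23.4 CPM in ELE and 18.8, 20.6 and 21.6 in sedentary mice, and its log2 fold change over both sides was 0.17 (SE 0.09, edgeR adjusted p = 0.924). Without TG9.1.1 all 3 of these genes passed an unadjusted p of 0.05, with values of 0.13, 0.16 and 0.20 for Nars, Hars and Mars, and without TG9.1.4 the values were 0.09, 0.06 and 0.12. Nars and Mars also passed it without TG9.1.3, at 0.14 and 0.23, and Nars without TG7.3.1, at 0.14.

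**Figure D2:**
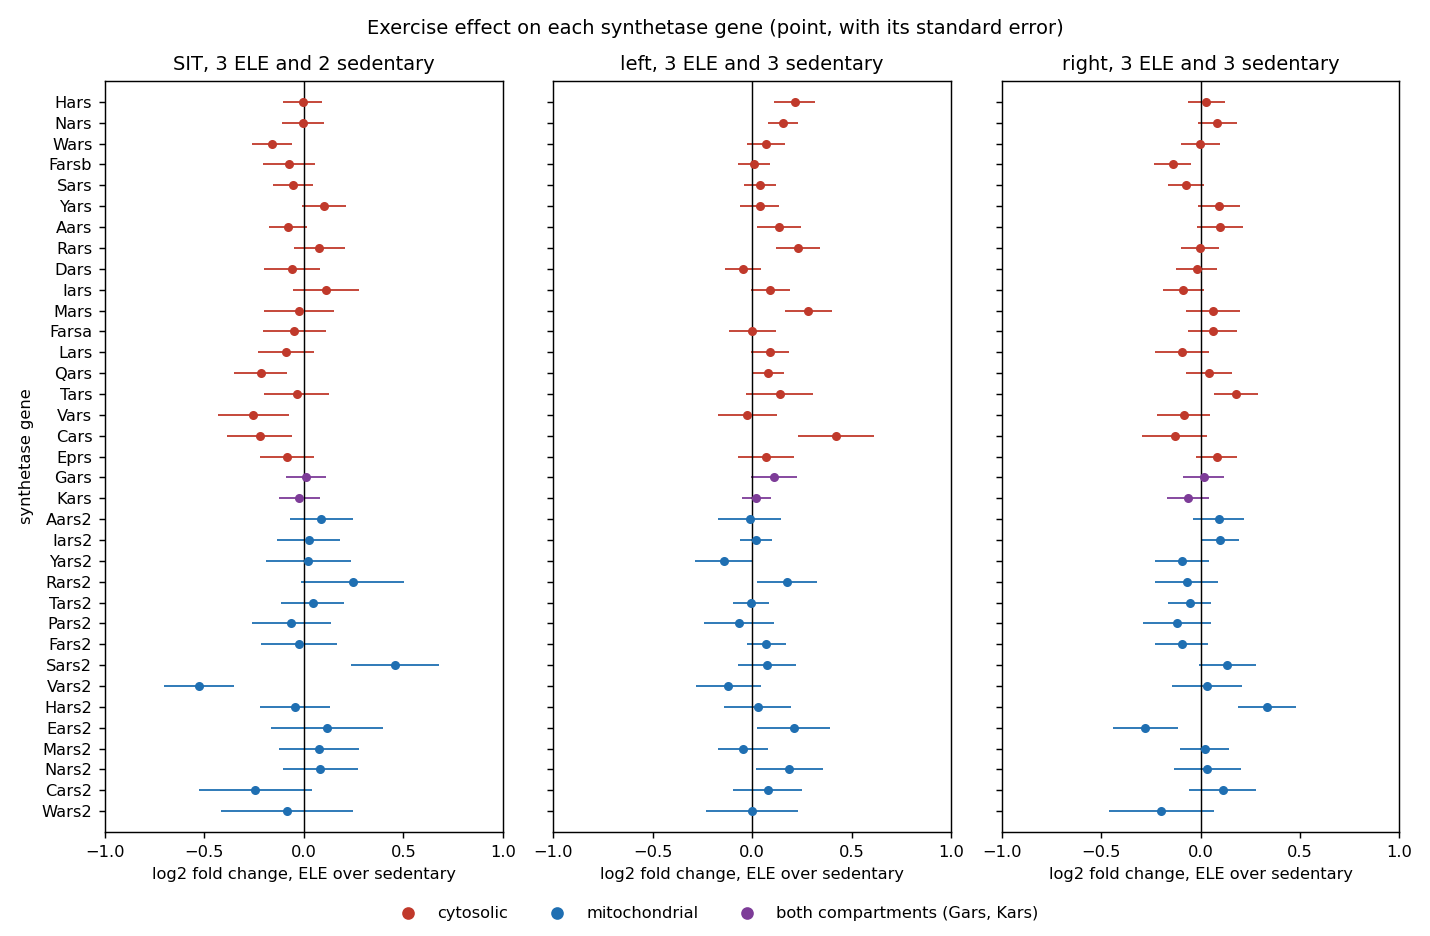
Log2 fold change of ELE over sedentary mice for each synthetase gene reported here, with its standard error, in the SIT libraries kept and in the left and right hippocampus. Vars2 at -0.53 in SIT was the gene past the study's limits, and 16 of 18 cytosolic genes lay above 0 on the left, or 9 of 18 without TG9.1.4.

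The exercise effects of the 2 hemispheres did not differ for any of the 36 genes at an unadjusted p under 0.05 by edgeR's test of the interaction, where 2.6% of all genes did. The nearest was Cars, at 0.42 on the left and -0.13 on the right (difference -0.55, SE 0.27, adjusted p = 1 by edgeR). The SIT and separate effects differed for 1 of 36 genes at that level, where 4.89% of all genes did. It was Qars, with -0.22 in SIT, 0.08 on the left and 0.04 on the right (difference -0.28, SE 0.13, edgeR adjusted p = 0.982). With all 8 SIT libraries 3 of 36 genes (Mars, Qars and Vars2) differed at that level, where 8.56% of all genes did, and with median-of-ratios size factors 2 of 36, where 4.91% did.

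Several synthetase transcripts were lower in SIT than in the separate isolation. SIT was set against the separate isolation over the 17 kept libraries, averaged over exercise and hemisphere. At an adjusted p under 0.05, 14 of 36 genes differed, where 21.1% of the 20345 genes tested did. Of the 14, 12 were lower in SIT (11.8% of all genes were) and 2 were higher (9.34%). The median log2 difference was -0.19 over the 36 genes and -0.02 over all genes, and 30 of 36 were lower. It was -0.20 over the 18 cytosolic and -0.18 over the 16 mitochondrial genes, and with all 8 SIT libraries it was -0.09 and -0.19.

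Vars, the cytosolic valine enzyme, had the largest difference. It ranged from 14.5 to 21.1 CPM in SIT (median 15.4, n = 5) and from 23.2 to 32.4 CPM in the separate isolation (median 26.9, n = 12), without overlap. The log2 difference was -0.71 (SE 0.10, adjusted p = 0.000110 by edgeR's quasi-likelihood test). Iars2, the mitochondrial isoleucine enzyme, ranged from 25.3 to 32.5 CPM (median 28.7) against 39.6 to 47.8 CPM (median 43.0), also without overlap. Its log2 difference was -0.59 (SE 0.07, adjusted p = 1.55e-05 by edgeR), the smallest p of the 36.

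Vars, Iars2, Mars, Eprs and Cars were also past the study's limits for a call, where 14.7% of all genes were, in either direction. Mars ranged from 12.1 to 15.3 CPM in SIT and from 17.8 to 25.9 in the separate isolation (log2 difference -0.56, SE 0.09, edgeR adjusted p = 0.000239). Eprs ranged from 32.8 to 40.9 against 45.0 to 60.8 CPM (log2 difference -0.45, SE 0.08, edgeR adjusted p = 0.000964). Neither gene's ranges met. Cars ranged from 13.7 to 18.9 against 17.1 to 32.6 CPM, with overlap (log2 difference -0.41, SE 0.12, edgeR adjusted p = 0.0200).

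Gars and Qars were lower by smaller amounts, at -0.38 and -0.36 (edgeR adjusted p = 0.000767 for each), without overlap between isolations. Lars, Rars, Sars, Tars2 and Aars2 were lower by 0.32, 0.27, 0.21, 0.29 and 0.30 on the log2 scale. At an adjusted p under 0.05, Wars and Hars2 were the 2 that were higher in SIT. Wars, the cytosolic tryptophan enzyme, had a mean of 97.3 CPM ± 7.02 (SD, n = 5) against 82.7 ± 6.12 (SD, n = 12), with a log2 difference of 0.24 (edgeR adjusted p = 0.00699). Hars2 had 11.8 ± 0.862 against 9.75 ± 1.27 CPM (log2 difference 0.28, edgeR adjusted p = 0.0471). Of the 8 genes of the multi-synthetase complex, 5 passed, all lower, and the complex had a median of -0.30 against -0.15 for the other 28 genes, a contrast that was not tested. With all 8 SIT libraries 1 of the 8 passed, and the medians were -0.15 and -0.09.

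In 8 of 36 genes every SIT library was below every separate library, where 3.79% of all genes were ordered so, and in none was every SIT library above, where 3.21% were. These 8 were Eprs, Gars, Iars2, Mars, Qars, Sars, Tars2 and Vars. Each isolation used its own mice, so isolation and mice cannot be told apart. With all 8 SIT libraries 6 of 36 genes had an adjusted p under 0.05, where 17.1% of all genes did, so the share of the synthetases was then near that of all genes. The count was 6 in sedentary libraries alone (11.9% of all genes), 8 without NT6.305 (11.4%) and 9 without NT6.306 (13.4%), the last pair with 1 sedentary SIT library. Of the 14 genes, 5 also passed with all 8 libraries (Iars2, Qars, Tars2, Vars and Wars). The 9 that did not were Aars2, Hars2, Lars, Rars and Sars, with Mars at -0.29 (edgeR adjusted p = 0.0911), Gars at -0.21 (edgeR adjusted p = 0.246), Eprs at -0.19 (edgeR adjusted p = 0.334) and Cars at -0.02 (edgeR adjusted p = 0.977). Astrocyte markers were also lower in SIT (4 of 4 at an adjusted p under 0.05, 549 to 915 against 982 to 1259 CPM in sum) and interneuron markers higher (2 of 5 at that level). Of 4 oligodendrocyte markers 1 was higher at that level and 0 were lower. Of the 4 excitatory neuron markers, Neurod6 and Nrgn were higher and Slc17a7 and Camk2a lower at that level, with Camk2a at -0.62. The mitochondrial genome took 0.245% to 0.523% of counts in the kept SIT libraries and 0.0704% to 0.122% in the separate ones, without overlap. The part of these shifts in the synthetase differences was not tested.

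**Figure D3:**
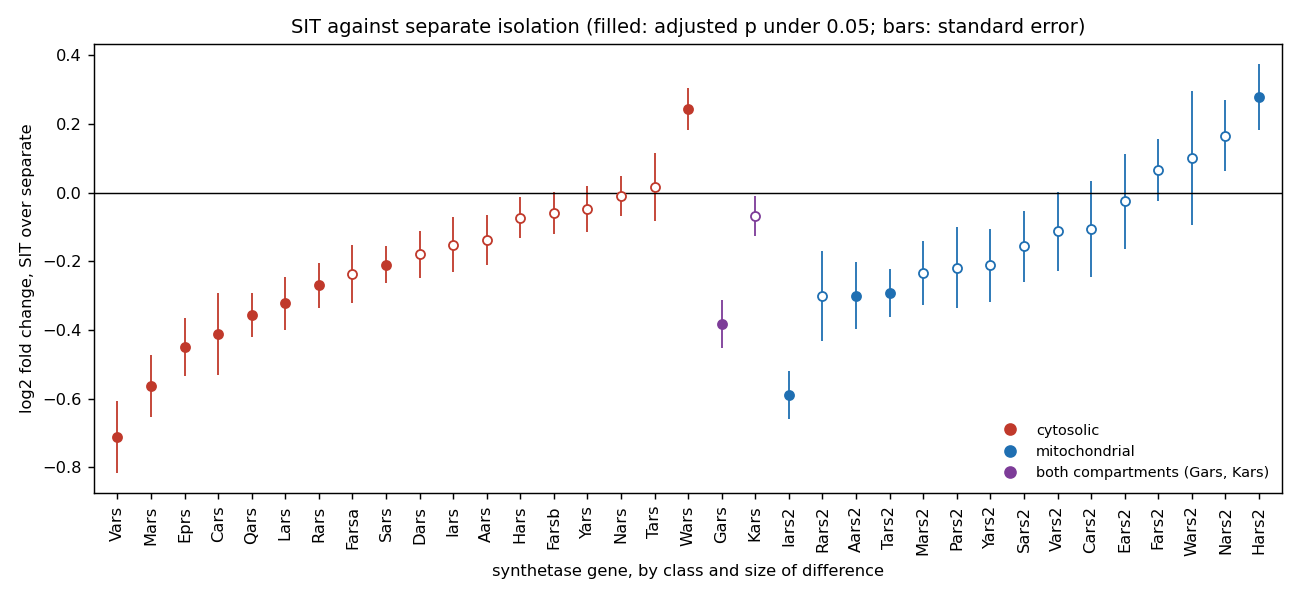
Log2 difference between SIT and separate isolation for each synthetase gene reported here, with its standard error, by class. Filled points had an adjusted p under 0.05, and 12 of these 14 lay below 0, with Vars at -0.71 and Iars2 at -0.59.

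Among single mice, 3 libraries were highest of their set for Atf4 and are described here for their synthetases. They were chosen after the values were seen, and this is given as a description. NT6.304, the ELE library that the study left out, was the highest of the 8 SIT libraries for 14 of 18 cytosolic genes, for Gars and Kars, and for 1 of 16 mitochondrial genes, where 19.7% of all genes tested were highest there. Cars read 51.0 CPM in NT6.304 and at most 24.7 in the other SIT libraries. Gars read 158 CPM there against a median of 76.1 in the others, and Aars 174 against 101. Vars2, a mitochondrial gene, read 7.50 CPM and was lowest there.

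TG9.1.4, a left ELE library that was kept, was the highest of the 6 left libraries for 16 of 18 cytosolic genes and 6 of 16 mitochondrial ones, where 26.2% of all genes were highest there. TG9.1.1, a right sedentary library, was the highest of 6 for 8 of 18 cytosolic and 2 of 16 mitochondrial genes, where 18.6% of all genes were. TG9.2.1, a right ELE library, was the highest for 6 of 18 cytosolic and 2 of 16 mitochondrial genes, where 14.5% of all genes were, with a median cytosolic deviation from the kept-library medians of 0.13 against 0.14 in TG9.1.1. Of the 3 libraries, 2 were from ELE mice and 1 from a sedentary mouse. TG9.1.4 and TG9.1.1 share the number's prefix TG9.1 with TG9.1.2 and TG9.1.3, where Atf4 was 74.6 and 91.9 CPM. Against the median of the other libraries of their set, the median cytosolic gene was higher by 0.61, 0.24 and 0.13 on the log2 scale in NT6.304, TG9.1.4 and TG9.1.1, and the median mitochondrial gene by 0.02, 0.02 and 0.01.

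**Figure D4:**
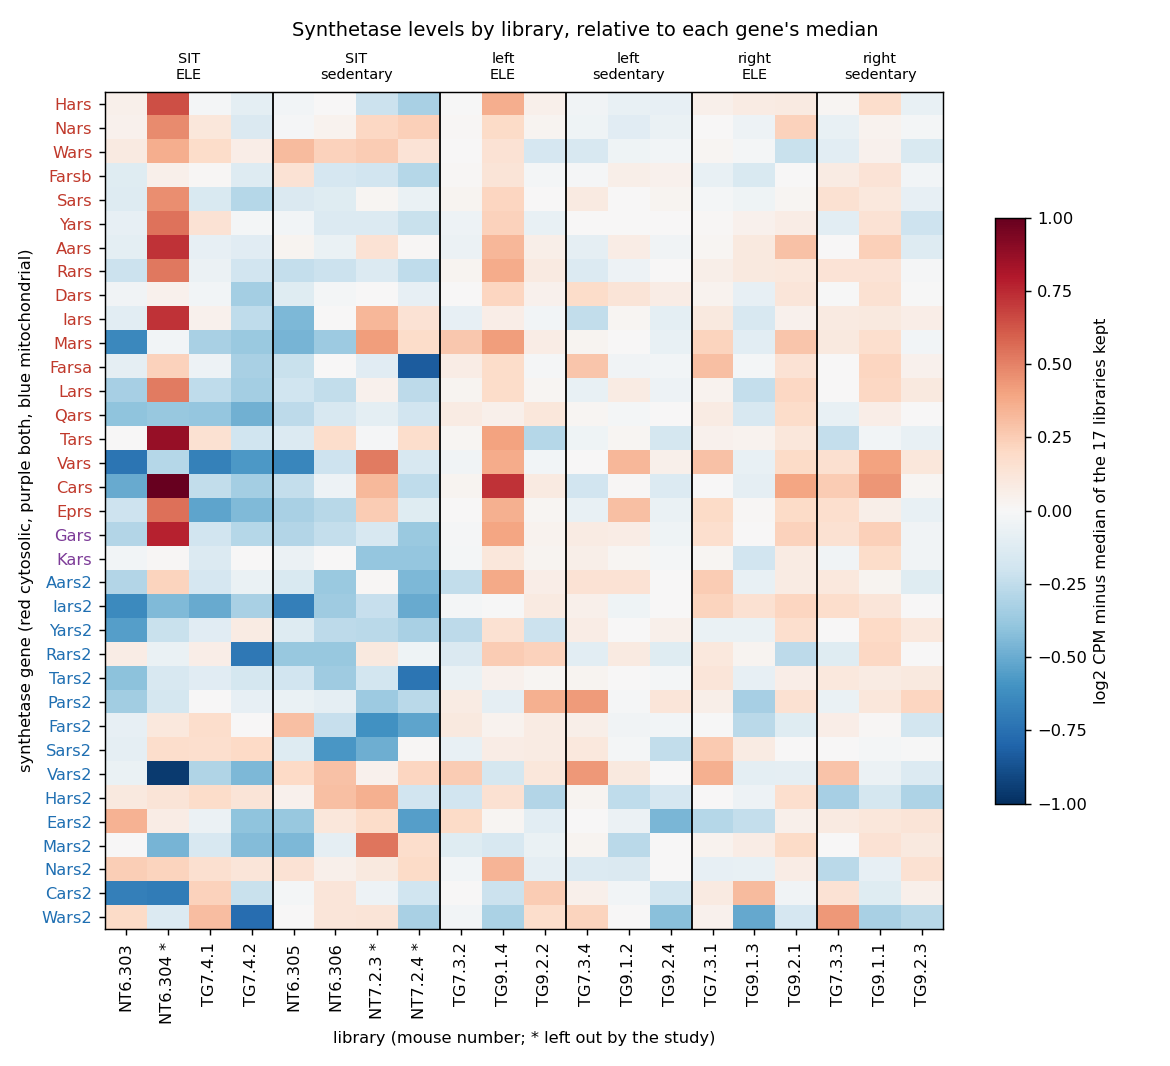
Log2 CPM of each synthetase gene reported here in the 20 libraries, minus its median over the 17 kept libraries, with red for higher and blue for lower. Of 18 cytosolic genes, 15 were above their median in NT6.304 (not Mars, Qars and Vars), 18 in TG9.1.4, 17 in TG9.1.1 and 16 in TG9.2.1. In TG7.3.1, a right ELE library with Atf4 at 73.1 CPM, 14 were above. The share of all genes above their medians was not counted.

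Atf4 mRNA read 287 CPM in NT6.304 and 94.2 to 106 CPM in the other SIT libraries, 128 CPM in TG9.1.4 and at most 80.5 in the other left libraries, and 147 CPM in TG9.1.1 and at most 98.4 in the other right libraries. Known targets varied in direction. Chac1, which degrades glutathione, read 23.4, 6.03 and 7.32 CPM in the 3 libraries, each the highest of its set. Mthfd2, a mitochondrial folate enzyme, read 22.6, 6.49 and 7.93 CPM, also the highest of each set. Asns, asparagine synthetase, read 87.9 and 75.1 CPM in NT6.304 and TG9.1.4, the highest of their sets, and 63.0 CPM in TG9.1.1, below 1 other right library.

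The list of ATF4 and amino acid response genes held 20 genes, 19 of them tested in each of these sets. Atf4 is on this list and chose the libraries, so it is left out of the count: of the other 18 genes, 14 were highest in NT6.304, 10 in TG9.1.4 and 7 in TG9.1.1. Of all genes tested 19.7%, 26.2% and 18.6% were highest there. In the same libraries 1, 5 and 3 of the 18 were the lowest. Over all genes tested 3187 of 17531, 4598 of 17750 and 3132 of 17570 were the lowest there. Psat1 and Phgdh, of serine synthesis, and Slc7a11, a cystine transporter, were below the median of the other libraries in all 3. In NT6.304, TG9.1.4 and TG9.1.1 the log2 deviation of Psat1 was -0.27, -0.42 and -0.42. That of Phgdh was -0.49, -0.83 and -0.63, and that of Slc7a11 was -1.39, -0.81 and -0.34. Of 12 partners and relatives of the synthetases, such as Aimp1 and Aimp2 of the multi-synthetase complex, 2, 5 and 6 were highest in these libraries. Of 12 genes of mitochondrial tRNA charging and maturation, such as Gatc and Trmu, 4, 2 and 3 were highest there. Both counts stand beside the same 19.7%, 26.2% and 18.6% of all genes. Microglia markers summed to 7.94 CPM in NT6.304, above the 2.72 to 3.92 CPM of the kept SIT libraries. They summed to 5.94 CPM in TG9.1.4, with at most 3.42 in the other left libraries, and to 4.07 CPM in TG9.1.1, with at most 2.86 in the other right libraries. Interneuron markers summed to 107 CPM in NT6.304 and to between 63.3 and 75.3 CPM in the kept SIT libraries, and in TG9.1.4 to 64.6 CPM, with at most 62.4 in the other left libraries. Oligodendrocyte markers summed to 1807 CPM in TG9.1.1 and to between 2020 and 2915 in the other right libraries. The astrocyte marker Aqp4 read 351 CPM in TG9.1.4 and at most 227 in the other left libraries, and 317 CPM in TG9.1.1 beside 308 in TG9.2.1. Other astrocyte markers were lower there: Gja1 deviated by -0.74 and -0.58 in TG9.1.4 and TG9.1.1, and Slc1a3 by -0.14 and -0.30. Aldh1l1 deviated by 0.33 and -0.01. All 4 astrocyte markers summed to 1113 and 1010 CPM, within the 982 to 1259 CPM of the separate libraries. The part of these markers in the values of the 3 libraries was not tested.

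**Figure D5:**
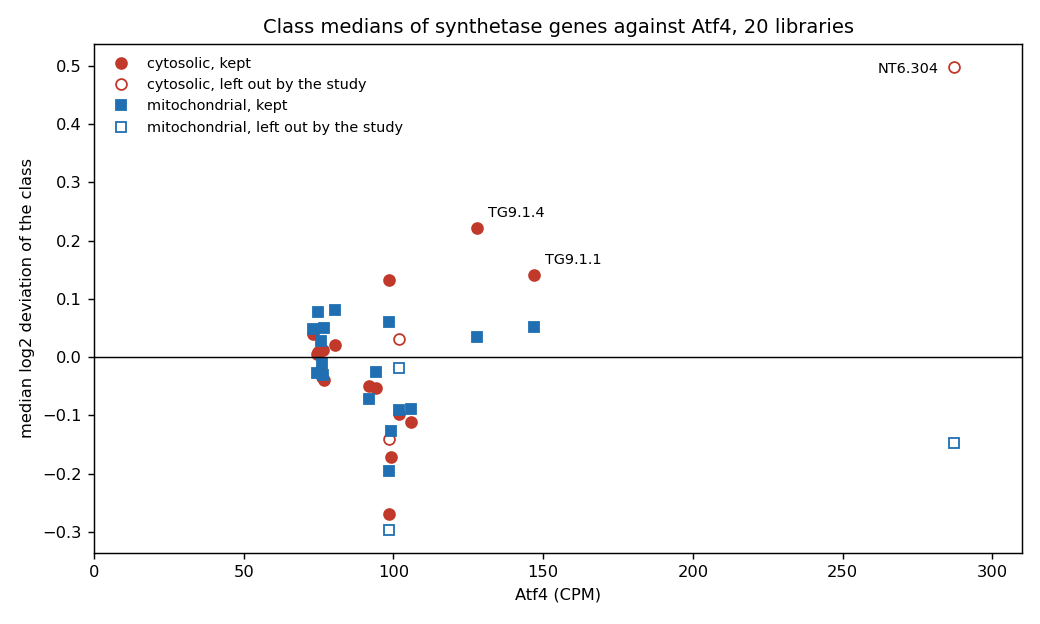
Median log2 deviation of the 18 cytosolic and 16 mitochondrial genes from their kept-library medians, against Atf4 in CPM, for 20 libraries, with open symbols for libraries the study left out. NT6.304 lay at 0.50 for cytosolic and -0.15 for mitochondrial genes, TG9.1.4 at 0.22 and 0.04, and TG9.1.1 at 0.14 and 0.05.

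The pathway lists were read in the same comparisons. In SIT none of the 44 genes of the 3 pathway lists was called by edgeR, where 3.65% of all genes were. At an unadjusted p under 0.05 there was 1, where 5.48% of all genes passed. It was Phgdh of serine synthesis at -0.38 (edgeR adjusted p = 0.905). On the left, Chac1 (log2 fold change 0.77, edgeR adjusted p = 0.960) and Mthfd2 (0.45, edgeR adjusted p = 0.960) were called higher in ELE, with TG9.1.4 the highest library for both. They were 2 of the 19 ATF4 and amino acid response genes tested, where 2.07% of all genes were called in either direction and 1.1% higher in ELE, and no gene of the other lists was called on the left. Atf4 itself was at 0.32 on the left (edgeR adjusted p = 0.960) and -0.02 in SIT (edgeR adjusted p = 0.999). Its left value rested on TG9.1.4, at 128 CPM. Other left ELE libraries read 76.5 and 80.5 CPM, and left sedentary ones 74.6 to 76.8 CPM. On the right none was called by edgeR, where 1.97% of all genes were, and none had an unadjusted p under 0.05. In the isolation comparison, at an adjusted p under 0.05, 1 of 20 ATF4 and amino acid response genes was higher in SIT and 5 were lower, beside 9.34% and 11.8% of all genes. Ddit3, a stress-response factor, was the higher one at 0.48 on the log2 scale, and Asns (-0.45), Slc1a4 (-0.49), Eif2ak4 (-0.41), Slc7a5 (-0.36) and Slc3a2 (-0.34) were lower. Of 12 synthetase partners, Eef1e1 (0.33), Dtd1 (0.31) and Ptrh2 (0.40) were higher and Aimp2 (-0.47) and Aarsd1 (-0.58) lower. Of 12 genes of mitochondrial tRNA charging and maturation, Gatc (0.34) and Trnt1 (0.31) were higher and Elac2 (-0.33) was lower.

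Promoters were searched for a sequence bound by ATF4 with its C/EBP partners, TGATGCAA, on both strands. RefSeq promoters (GRCm38.p6, 300 bases each, mostly before the start site) were matched for 26 of the 36 genes. The motif lay in the promoters of 4 of 11 cytosolic genes and of none of 13 mitochondrial genes, against 0.895% of all 32851 promoters and 1.01% of 17492 protein-coding genes. Short windows around the match are shown for 3 of the 4 because they hold the sequence that was counted, with the motif in capitals, and those of 2 amino acid response genes follow for comparison.
Iars, chr13:49682126-49682155: gcgtctggaggTGATGCAAtactgacagtg
Tars, chr15:11399655-11399684: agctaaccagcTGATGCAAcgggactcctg
Yars, chr4:129189895-129189924: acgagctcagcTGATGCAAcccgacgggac
Chac1, chr2:119351038-119351067: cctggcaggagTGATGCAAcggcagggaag
Pycr1, chr11:120643833-120643862: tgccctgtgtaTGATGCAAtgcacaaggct

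The motif of Tars lay at position -15 from the start site, while those of Iars and Yars lay at 8 and 4, just inside the transcript. The windows of Iars, Chac1 and Pycr1 are written from the minus strand of the genome and those of Tars and Yars from the plus strand. With the looser pattern TGATGNAA, which contains the first, the cytosolic count stayed at 4 of 11 (3.97% of all promoters hold it), Gars was added and the mitochondrial count stayed at 0 of 13. The window of Gars, chr6:55037960-55037989 on the minus strand, with the motif at -30, follows.
Gars: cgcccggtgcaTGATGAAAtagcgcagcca

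All 4 cytosolic genes with the motif were highest in NT6.304 among SIT libraries, as were 4 of the 7 matched cytosolic genes without it and 14 of 18 cytosolic genes in all. These letters describe the windows and do not show binding, and promoters of some genes, such as Cars, Hars, Nars and Hars2, were not analysed here.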

How the data were processed

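RNA from Emx1-NuTRAP hippocampus was measured by TRAP-seq in 20 libraries, each from 1 mouse. Per the methods and the submitters' processing notes, reads were aligned with STAR 2.7.3a to GRCm38 and duplicates removed with Picard 1.87. Read pairs were then counted over the exons of each gene by strand, and the authors deposited whole counts per gene without normalization. Duplicate removal can lower the counts of abundant genes, and pairs falling on 2 genes of the same strand, such as Aars and Exosc6, are not counted for both. Columns were assigned to groups from the study's sample sheet, which pairs mouse numbers with isolation, side and exercise. A wild-type table with 24 columns that match no label was not used. The SIT libraries kept were identified as the subset whose normalized means equal those the study lists, for 633 of 633 genes (within 0.01%).

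Counts were normalized with TMM, filtered with filterByExpr and tested by the quasi-likelihood method of edgeR 4.0.16 in R 4.3.3, over all genes and with the groups compared in each fit. CPM used TMM library sizes. DESeq2 1.42.0, median-of-ratios size factors, no filter, a block for the mouse number's prefix, all 8 SIT libraries and leaving out each library were the alternatives. On simulated counts with 200 genes changed by 1 on the log2 scale, larger than the exercise effects of the 36 genes, the SIT test recovered 82.5% at the adjusted threshold and the left, right and separate tests 90.0%, 89.0% and 94.0%. The false share of genes passing was 5.71%, 4.76%, 8.25% and 4.08%, in the order SIT, left, right and separate. Every simulated gene had the same dispersion, without shifts shared by genes of a library, so these shares need not hold for the real libraries.

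The genes, lists and tests were chosen with earlier results of these data known. Values in each library are given for genes called in an exercise comparison, for the 3 smallest p-values in each and for genes differing in an interaction. For the isolation comparison and the highest and lowest levels, ranges or means are given instead. Genes named for the libraries of high Atf4, and pathway genes outside these limits, were named after their values were seen. For 1 of the 36 genes, and for 1 promoter window, values are counted in the totals but not reported here.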

Additional observations from a re-analysis of the deposited data

Results flagged for a closer look

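In the 4 SIT ELE libraries, NT6.304 stood apart from the other 3 by Dixon's test for 7 quantities. They were Aars at 174 CPM (others 97.4 to 99.6), Cars at 51.0 CPM (13.7 to 16.4), Gars at 158 CPM (75.6 to 81.0), Hars at 155 CPM (92.7 to 103), Lars at 37.8 CPM (20.6 to 21.8), Sars at 136 CPM (80.5 to 89.6) and Atf4 at 287 CPM (94.2 to 106). NT6.304 is the ELE library that the study left out, and no mitochondrial synthetase was apart in it by this test.

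Sars2 was apart at the low end in NT6.303, at 8.91 CPM against 10.8 to 11.03 in the other SIT ELE libraries. The summed cytosolic synthetases were apart in NT7.2.3, at 1043 CPM against 940 to 951 in the other SIT sedentary libraries. Of 78 group values examined in this way 9 were apart. For independent values about 1 in 20 would be apart by chance. Most of the 9 came from the single library NT6.304 and are not independent, so that share does not apply. Qars was the gene whose exercise effect differed at an unadjusted p under 0.05 between SIT and the separate isolation, by -0.28 on the log2 scale (SE 0.13, adjusted p = 0.982 by edgeR). When any of 14 of the 17 libraries was left out it missed that limit.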

How the results depend on the processing

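No called gene turned direction under the alternatives run. Between the kept and all 8 SIT libraries, the sign of 17 of 36 SIT effects, 15 of 36 interaction differences and 5 of 36 isolation differences changed, none of them called in either fit. With all 8 SIT libraries the median exercise effect of the 36 genes was 0.0837 instead of -0.03, the isolation count was 6 instead of 14 (17.1% of all genes instead of 21.1%), the median difference between SIT and separate effects was 0.0801 instead of -0.03, and 3 genes instead of 1 passed that interaction at an unadjusted p under 0.05, as did 8.56% of all genes instead of 4.89% (2 genes with median-of-ratios size factors, where 4.91% of all genes did). The isolation count was 6 in sedentary libraries alone, an alternative chosen after seeing the data, and these fits hold fewer samples. On the left 1 gene was called instead of 0 without a filter, with DESeq2 and with the prefix block, and 1 gene instead of 0 passed the hemisphere interaction without a filter.

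Within a side, mice that share a number's prefix deviated together weakly or not at all, and the block is given only as a check. Correlations were 0.0158 to 0.181 on the left and -0.0896 to 0.21 on the right, each highest for prefix TG7.3. Mice of opposite sides were not compared, such as TG9.1.4 and TG9.1.1 of prefix TG9.1. With the block Vars2 was not called, Cars on the left was called at 0.39, Hars2 on the right missed an unadjusted p of 0.05 at 0.33, and the SIT count stayed at 1 with Cars2 as the gene called. Leaving out single libraries gave 0 to 2 calls in SIT, 0 to 1 on the left, 0 to 1 on the right, 0 to 2 genes in each interaction and 8 to 14 genes for isolation. The log2 gap between mitochondrial and cytosolic levels was -1.41, with -1.88 for means of log2 levels, -1.59 without division by length and -1.77 with Gars and Kars counted as cytosolic. Without TG9.1.4 and TG9.1.1, chosen after seeing the data, 14 isolation differences were found.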
